A study of Mus musculus with 19 samples.

Results

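The genes described here are 9 secretory genes of the mouse vomeronasal organ (VNO), 8 of them of the BPI fold-containing (BPIF) family and 1 a gel-forming mucin. They are Bpifa1, Bpifb1, Bpifb3, Bpifb4, Bpifb5, Bpifb6, Bpifb9a, Bpifb9b and Muc5b, 9 of 35596 genes in the mRNA-seq files, and they were taken by name and not by a measured value. Whole VNOs of female mice at postnatal day 21 were sequenced in 6 groups of 3 libraries. In the AP-2εCre line the conditional knockouts (cKO) were AP-2εCre+/-/Smad4flox/flox, and the controls were AP-2εCre+/- heterozygotes and Smad4flox/flox animals without Cre. In the OMPCre line the cKOs were OMPCre+/-/Smad4flox/flox, with OMPCre+/- heterozygotes and Smad4flox/flox animals as controls. Samples of the flox groups carry a genotype label of Wild Type, whereas the series' design text and the study's methods give Smad4flox/flox. AP-2εCre, a Cre inserted at the Tfap2e locus, recombines in immature basal vomeronasal sensory neurons, and OMPCre in mature apical and basal ones. Neither is known as a gland driver, so that Smad4 was aimed at neurons while the genes described here are known as products of secretory epithelium. In such whole-organ libraries, fewer cells of a kind and less RNA per cell cannot be told apart.

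BPIF proteins are secreted relatives of the bactericidal/permeability-increasing protein and carry a fold that binds lipids. In the nose and upper airway they are made by glands and surface epithelium and coat the mucosa. Bpifa1 (SPLUNC1) and Bpifb1 (LPLUNC1) are abundant airway secretions, Bpifb9a and Bpifb9b encode forms of vomeromodulin, a glycoprotein of the mucus of the VNO and nasal glands, and Bpifb3 (RYA3) and Bpifb4 (RY2G) were first described in olfactory mucosa. Muc5b is the polymeric mucin of submucosal glands, and with the secreted proteins it forms the fluid in which chemosignals reach the vomeronasal neurons.

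Total estimated counts per library ranged from 43385516 to 134042284. The 9 genes held 0.220% to 0.684% of a library's counts. Neuronal, gland and other cell type markers were all present in these organs, although the samples carry a cell type label of immature basal neurons. Summed TPM (transcript abundance per length and per library size) over 6 vomeronasal neuron markers ranged from 753 to 1665. For 14 serous gland genes it ranged from 19648 to 40257, for 10 mucous gland or goblet genes from 257 to 698, and for 5 sustentacular genes of the main olfactory mucosa from 503 to 2518. Of these lists, the goblet gene Tff3 was listed at 0 in all 18 libraries and the club cell gene Scgb1a1 averaged 0.073 TPM. Smad4 itself stood at 32.5, 65.6 and 75.3 TPM in the AP-2εCre cKOs, in ascending order, where the controls of that line spanned 30.1 to 72.0 TPM. In the OMPCre cKOs it stood at 31.1, 39.0 and 50.7 TPM, and the lower 2 of these lay below all controls of that line, which spanned 41.0 to 71.5 TPM. In the floxed allele an exon of Smad4 lies between loxP sites. The study reported loss of that exon's transcript and of Smad4 protein in basal neurons of AP-2εCre cKOs. TPM of the whole gene in a whole organ cannot show such a loss.

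The 8 BPIF genes lie in 1 stretch of chromosome 2, all on the forward strand (GRCm38, GENCODE vM21). Bpifb6 (chr2:153900388-153912795), Bpifb3 (chr2:153918230-153932996) and Bpifb4 (chr2:153938212-153964101) come first. After a gap follow Bpifa1 (chr2:154142880-154149219), Bpifb1 (chr2:154190818-154220369), Bpifb5 (chr2:154223742-154240902), Bpifb9a (chr2:154257854-154271245) and Bpifb9b (chr2:154307227-154320646). Muc5b lies apart on chromosome 7 (chr7:141839070-141873084). The coding parts of the BPIF genes differ widely, with at most 54.7% identical positions in pairwise alignments, except for 1 pair. Bpifb9a and Bpifb9b, both of 15 exons with 1773 coding bases, are 99.27% identical, with 13 mismatches and no gap. Their longest identical run is 465 bases, whereas the reads were 75 bases long. Of all 75-base stretches in the transcripts of Bpifb9a, 54.03% also occur in Bpifb9b, and 61.57% of those in Bpifb9b occur in Bpifb9a. None of the other 7 genes shares a 75-base stretch with another gene.

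How reads of Bpifb9a and Bpifb9b are told apart is shown by coding bases 67 to 141 of both genes, which lie within 1 exon and hold 3 of the 13 mismatches, in capitals (GRCm38, forward strand, chr2:154260051-154260125 for Bpifb9a and chr2:154309427-154309501 for Bpifb9b).
Bpifb9a: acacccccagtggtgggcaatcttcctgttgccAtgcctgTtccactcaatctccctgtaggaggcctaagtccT
Bpifb9b: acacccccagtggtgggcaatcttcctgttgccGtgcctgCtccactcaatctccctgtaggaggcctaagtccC
A read that covers no position at which the genes differ, here or elsewhere in their transcripts, would have to be divided between both genes by the quantification, so the sum of the pair is better determined than either gene.

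Upstream sequence is shown for the 3 BPIF genes that hold a TATAAA within the 60 bases before their RefSeq start, and for Bpifb5, whose level went with that of Bpifb9a (GRCm38.p6, forward strand, TATAAA in capitals). RefSeq starts of the 9 genes were found for 8, with 10 promoters in all.
Bpifa1, chr2:154142820-154142879: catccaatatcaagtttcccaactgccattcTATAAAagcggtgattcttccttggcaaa
Bpifb9a, chr2:154257819-154257878: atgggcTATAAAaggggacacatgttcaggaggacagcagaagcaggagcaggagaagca
Bpifb9b, chr2:154307184-154307243: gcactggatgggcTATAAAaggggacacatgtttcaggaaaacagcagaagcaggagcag
Bpifb5, chr2:154223682-154223741: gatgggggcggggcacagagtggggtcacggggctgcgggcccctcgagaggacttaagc
On the strand of the gene, the letters TATAAA stand in 2.87% of the same windows of 32851 RefSeq promoters, and on the opposite strand in 1.32%, in none of the promoters of these genes. The window was set to the 60 bases printed after a shorter one had been seen. They begin 29 bases before the start in Bpifa1, 54 in Bpifb9a and 47 in Bpifb9b. GENCODE places the starts of Bpifb9a and Bpifb9b further upstream than RefSeq, within the windows shown. Over 250 bases upstream, Bpifb9a and Bpifb9b are 94.7% identical.

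By TPM, which is per length and allows genes to be compared, Bpifa1 was by far the most abundant, at rank 33 of 35596 genes with a mean of 3095 TPM over the 18 libraries. Bpifb9a followed with 869 TPM (rank 87), Bpifb1 with 300.1 TPM (rank 297) and Bpifb9b with 195 TPM (rank 492). Bpifb3 (38.0 TPM), Bpifb5 (29.5 TPM) and Muc5b (26.2 TPM) were moderate, and Bpifb4 (2.86 TPM) and Bpifb6 (0.460 TPM) were low. Bpifa1 was above Bpifb9a in 17 of 18 libraries, and Muc5b above Bpifb4 in 17. From Bpifb9a down to Muc5b, the mean difference between neighbours in this order was smaller than its SD over libraries. Bpifb9a was above Bpifb1 in 15 of 18 libraries, by 1.83 ± 1.90 on the log2(TPM + 1) scale (SD, n = 18), Bpifb1 above Bpifb9b in 13, by 1.80 ± 3.18, and Bpifb5 above Muc5b in 7, by 0.031 ± 1.10. Noncoding transcripts entered these values. Of the mean TPM of Bpifa1, 1328 came from a 559-base noncoding transcript and 1765 from the coding transcript of 1106 bases. Of the mean TPM of Bpifb9a, 500.2 came from a 462-base noncoding transcript and 364 from the coding transcript of 2065 bases. That short transcript of Bpifb9a shares 58.0% of its 75-base stretches with the coding transcript of Bpifb9b.

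**Figure D1:**
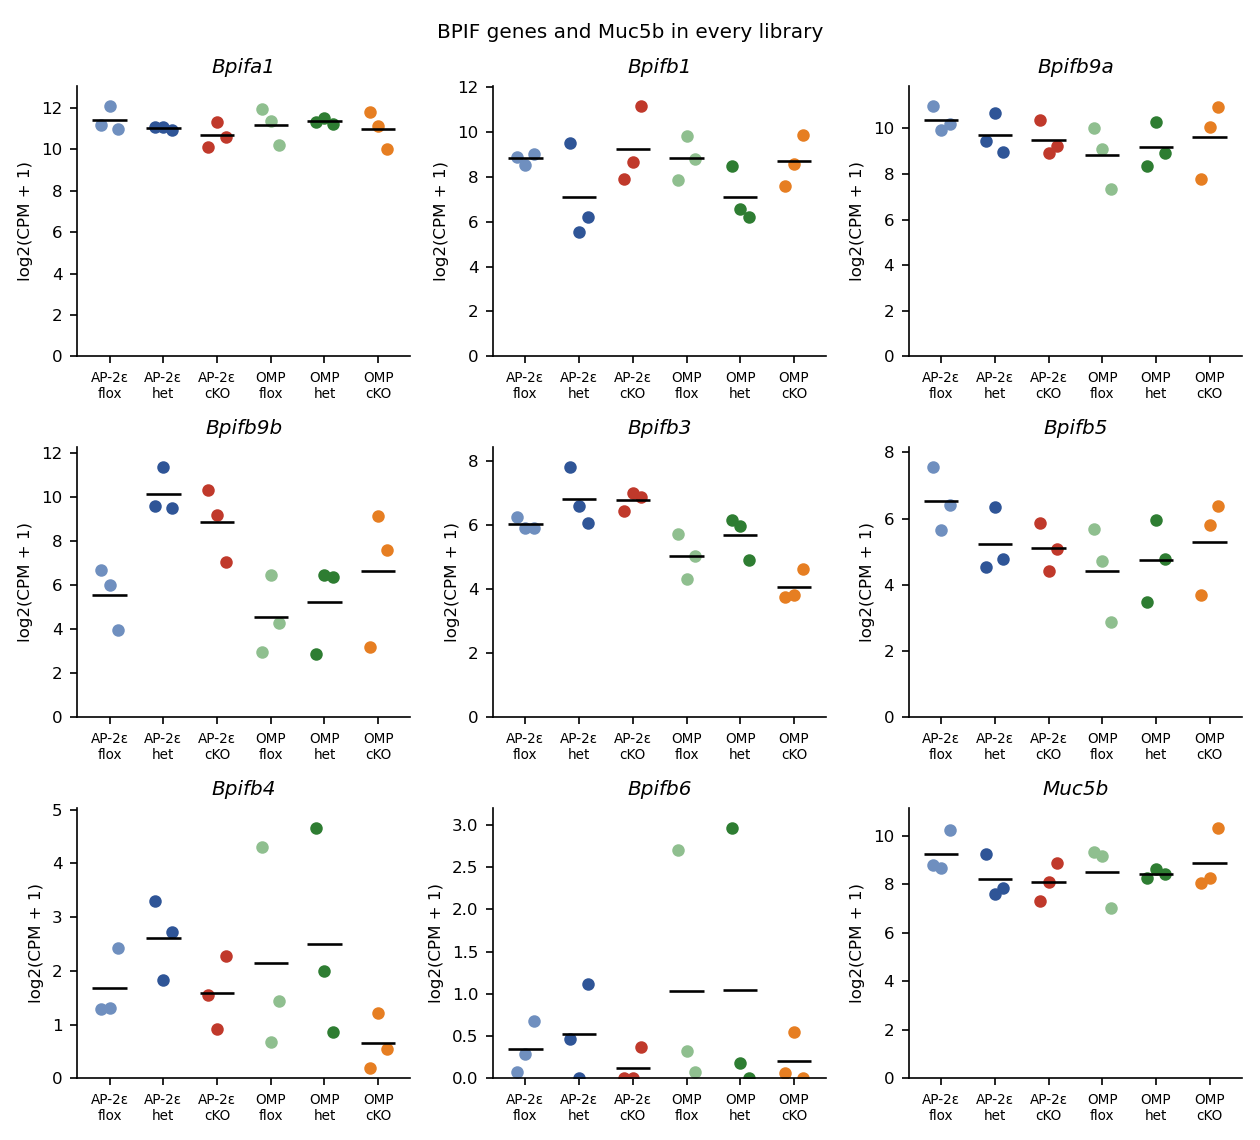
Level of each gene in the 18 libraries, as log2(CPM + 1), where CPM are TMM-normalized counts scaled to equal library size, on an axis that starts at 0 and differs between panels, with points for libraries in replicate order and bars for group means. Bpifb9b lay at 713 to 2595 CPM in the 3 AP-2εCre heterozygotes and at most 101 CPM in the 3 flox controls of that line, and Bpifb4 and Bpifb6 were highest in 1 OMPCre flox and 1 OMPCre heterozygous library.

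Spread between libraries of a group was large for all 9 genes. The biological coefficient of variation, edgeR's estimate of the spread between replicates beyond counting error, ran from 0.377 for Bpifb3 and 0.383 for Bpifa1 to 0.964 for Bpifb9b and 1.88 for Bpifb6. Its median over 19472 genes was 0.184, and 74.7% to 98.3% of these genes had a lower value than a given one of the 9. Within a single group the highest library stood above the lowest by up to 3.37-fold for Bpifa1, 3.38-fold for Bpifb3, 15.9-fold for Bpifb1 and 67.9-fold for Bpifb9b.

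**Figure D2:**
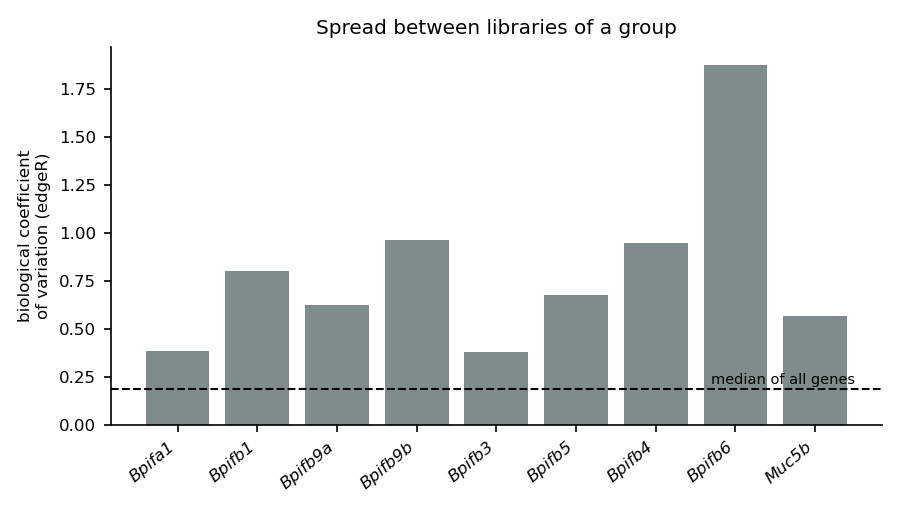
Biological coefficient of variation (no unit, axis from 0) of each gene in a fit over 18 libraries in 6 groups, with the median of 19472 genes as a dashed line at 0.184. All 9 bars lie above the line, from 0.377 for Bpifb3 to 1.88 for Bpifb6.

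In AP-2εCre cKOs against the 6 controls of that line, none of the 9 genes passed the test. edgeR called 7 of 18495 genes at an adjusted p under 0.05 (0.0378%), and the lowest adjusted p among the 9 was 0.621, for Bpifa1. Bpifa1 measured 1105, 2528 and 1564 CPM in the cKOs, 2329, 4380 and 2021 CPM in flox controls and 2152, 2168 and 1951 CPM in heterozygotes. Of the 3 cKO libraries, 2 lay below all controls and the third within them. Its log2 difference was -0.53 (SE 0.32), with a two-sided exact permutation p of 0.19 where 3 against 6 libraries can reach 0.012. Bpifb1 measured 237, 397 and 2269 CPM in the cKOs and 45.6 to 723 CPM in the controls. Its log2 difference of 1.39 (SE 0.85, unadjusted p = 0.133) became -0.21 without cKO replicate 3. Muc5b measured 158, 268 and 474 CPM in the cKOs against 190.3 to 1193 CPM in the controls, a log2 difference of -0.77 (SE 0.56, unadjusted p = 0.200). For Muc5b this was -1.19 against flox controls alone (SE 0.52, unadjusted p = 0.051, adjusted p = 0.618) and -0.18 against heterozygotes alone (SE 0.52, adjusted p = 0.950), and within libraries named by a letter and number or by the line and a number it was -0.089 and -1.72 on the mean log2(CPM + 1) scale. Of the 9 genes, 7 had a lower and 2 a higher fitted level in the cKOs, with a median log2 difference of -0.53 beside 0.003 over all genes tested. No gene of the 9 had cKO libraries wholly outside the range of the controls, as 5.06% of the genes tested did in either direction. Markers of other cells also differed in these cKOs without a call. All 6 ciliated cell genes tested had a lower fitted level, 3 of them at an unadjusted p under 0.05, with a median log2 difference of -0.49 and summed levels of 167 to 264 TPM in cKOs and 182 to 308 TPM in controls. All 6 plasma and immune cell genes had a higher one, 2 of them at an unadjusted p under 0.05, with a median of 0.32 and summed levels of 140 to 173 TPM in cKOs and 76.7 to 106 TPM in controls. The summed level of the 6 vomeronasal neuron markers was 1324 to 1665 TPM in cKOs, wholly above the 753 to 1197 TPM of controls, with 4 genes higher and 2 lower in the fit, 1 of the former at an unadjusted p under 0.05, and a median of 0.11. All 5 main olfactory neuron genes had a higher fitted level, 1 at an unadjusted p under 0.05, with a median of 0.14. Of 5 sustentacular genes 4 had a lower one (median -0.058), of 5 erythroid genes 4 a higher one (median 0.23) and of 4 endothelial genes 3 a higher one (median 0.038). Of these, Cyp2a5 of the sustentacular list alone was at an unadjusted p under 0.05 (log2 difference -1.37, SE 0.44, edgeR unadjusted p = 0.011, adjusted p = 0.346). The part of these markers in the values of the 9 genes was not tested.

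Bpifb3 and Bpifb9b stood higher in these cKOs than in the flox controls, but so did the heterozygotes. Bpifb3 measured 87.1, 128 and 119 CPM in cKOs, 76.4, 58.9 and 59.2 CPM in flox controls and 226, 96.0 and 66.7 CPM in heterozygotes. Against flox controls alone the cKOs were higher by 0.77 on the log2 scale (SE 0.17, unadjusted p = 0.0023, adjusted p = 0.270), and against heterozygotes alone the difference was -0.22 (SE 0.42, adjusted p = 0.915). Bpifb9b measured 1276, 574 and 130.2 CPM in cKOs. Against all 6 controls its log2 difference was -0.095 (SE 1.28, unadjusted p = 0.942, adjusted p = 0.989). It was 3.47 above flox controls alone on the log2 scale (SE 0.93, unadjusted p = 0.0066, adjusted p = 0.374) and below heterozygotes alone (log2 difference -1.03, SE 0.81, adjusted p = 0.763).

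The clearest difference among the controls was that of Bpifb9b in AP-2εCre heterozygotes against flox controls. It measured 755, 2595 and 713 CPM in heterozygotes and 101, 62.7 and 14.4 CPM in flox controls, so that the groups did not overlap and the lowest heterozygote lay far above the highest flox library. The log2 difference was 4.51 (SE 1.00, unadjusted p = 0.0013). It did not pass edgeR's adjustment over all genes (adjusted p = 0.357), where 9 of 18495 genes were called (0.0487%). DESeq2, which called 122 of these genes (0.660%), called Bpifb9b with a log2 difference of 4.50 (adjusted p = 0.000706). Over the 10 alternative settings the adjusted p ran from 0.000706 to 0.690 and the log2 difference from 4.11 to 4.90. The exact permutation p of 0.10 is the smallest that 3 against 3 libraries allow. Bpifb9b was the only one of the 9 genes whose groups did not overlap here, beside 9.83% of all genes tested. Libraries are named by a letter and number or by the line and a number, and within these series the difference in mean log2(CPM + 1) was 4.12 (2 against 2 libraries) and 5.54 (1 against 1).

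Bpifb9a, the near-copy, did not stand higher in these heterozygotes. It measured 696, 1639 and 497 CPM in heterozygotes and 2018, 963 and 1183 CPM in flox controls, a log2 difference of -0.56 (SE 0.51, unadjusted p = 0.304). As a share of the counts of the pair, Bpifb9b took 52.0%, 61.3% and 58.9% in the 3 AP-2εCre heterozygotes and 4.78%, 6.11% and 1.20% in the 3 flox controls. In AP-2εCre cKOs it took 48.8%, 54.5% and 17.8%. In the OMPCre line the share was 0.642%, 13.4% and 10.4% in flox controls, 1.90%, 6.48% and 14.2% in heterozygotes and 3.59%, 33.9% and 8.70% in cKOs. Thus the 5 highest shares of 18 all came from AP-2εCre animals that carry Cre, and the sixth such library of the 18, cKO replicate 3, lay below OMPCre cKO replicate 2. By their genotypes, heterozygotes and flox controls differ in the Smad4 alleles as well as in Cre. A further AP-2εCre library, which entered no group because its labels name both a heterozygote and a cKO, carries Cre under either label and had a share of 5.26%, inside the range of the flox controls. Counting the coding transcripts alone, Bpifb9b took 61.6%, 70.1% and 63.8% in AP-2εCre heterozygotes and 5.27%, 6.70% and 1.33% in flox controls. Added together, the pair measured 1451, 4234 and 1211 CPM in heterozygotes and 2119, 1026 and 1197 CPM in flox controls. With the counts added, the log2 difference was 0.67 (SE 0.58, unadjusted p = 0.278, adjusted p = 1.00), so the groups did not differ detectably in the sum. Their shares did not overlap, and the share itself was not tested. With counts from length-scaled TPM the difference of Bpifb9a alone turned from -0.56 to 0.40 (adjusted p = 0.996). How far sequence differences between the mice and the reference entered the division was not tested.

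**Figure D3:**
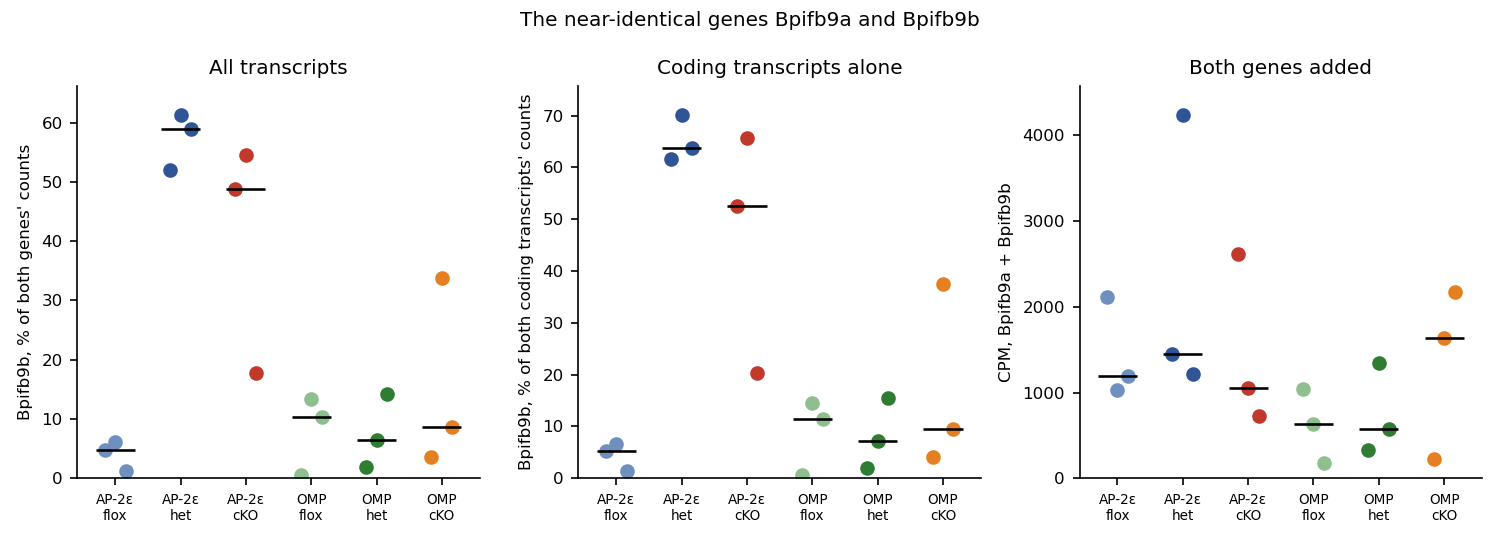
Share of Bpifb9b in the counts of Bpifb9a and Bpifb9b over all transcripts (left, %), the same over coding transcripts alone (centre, %) and the summed CPM of both genes (right), with points for libraries, bars for group medians and axes from 0. The AP-2εCre heterozygotes lie at 52.0% to 61.3% on the left and the flox controls of that line at 1.20% to 6.11%, while the summed CPM of these groups overlap.

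Other genes differed less between the kinds of control. Bpifb3 was higher in AP-2εCre heterozygotes than in flox controls by 0.997 on the log2 scale (SE 0.38, unadjusted p = 0.027, adjusted p = 0.900), with 2 of 3 heterozygotes above all flox libraries, and the value was 0.32 without heterozygote replicate 1. The summed level of 5 sustentacular markers was 2518, 1158 and 1629 TPM in heterozygotes and 632, 1022 and 1374 TPM in flox controls, so that the groups overlapped. Of these, 4 had a higher and 1 a lower fitted level, with a median log2 difference of 0.36. The cytochrome gene Cyp2a5 alone reached an unadjusted p under 0.05 (log2 difference 1.03, SE 0.37, edgeR unadjusted p = 0.021, adjusted p = 0.898), whereas Ugt2a1 stood at 0.0047 and Ermn at -0.0077. All 6 vomeronasal neuron markers had a lower fitted level in these heterozygotes, with a median log2 difference of -0.15. Among them Tfap2e, the gene at whose locus this Cre sits, differed by -1.03 (SE 0.19, edgeR unadjusted p = 0.0003, adjusted p = 0.187) and Gnao1, a G protein subunit of basal neurons, by -0.38 (SE 0.14, edgeR unadjusted p = 0.025, adjusted p = 0.900). Of the other lists, 5 of 6 ciliated (median 0.080), 5 of 6 plasma and immune (0.12), 3 of 5 main olfactory neuron (0.12), 3 of 5 erythroid (0.026) and 3 of 4 endothelial genes (0.075) had a higher fitted level. Of these, 1 erythroid gene was at an unadjusted p under 0.05. Of 13 serous genes 10 had a lower fitted level (median -0.15), of 9 mucous gland or goblet genes 4 (0.015) and of 9 lipocalin genes 4 (0.46). Of these gland and lipocalin lists, those at an unadjusted p under 0.05 were the protease inhibitor gene Slpi of the serous list (log2 difference 1.03, SE 0.31, edgeR unadjusted p = 0.0079, adjusted p = 0.742) and Galnt12 of the mucous list (-0.37, SE 0.12, edgeR unadjusted p = 0.011, adjusted p = 0.812). The part of these markers in the Bpifb3 and Bpifb9b values was not tested. Bpifb5 measured 22.1, 81.1 and 26.6 CPM in heterozygotes and 187, 48.9 and 83.8 CPM in flox controls, a log2 difference of -1.30 (SE 0.62, unadjusted p = 0.065). In the OMPCre line, edgeR called 14 of 18623 genes between heterozygotes and flox controls (0.0752%) and none of the 9. The lowest adjusted p there was that of Bpifb1 (0.833), at 361, 93.7 and 72.1 CPM in heterozygotes and 228, 899 and 447 CPM in flox controls. No gene of the 9 separated these groups, whereas 11.5% of all genes tested did. All 5 main olfactory neuron genes had a higher fitted level in these heterozygotes, 4 of them at an unadjusted p under 0.05 and none called, with a median log2 difference of 0.54. Of 5 sustentacular genes, 4 had a higher and 1 a lower one, with a median of 0.70, and Cyp2g1 differed by 1.02 (SE 0.29, edgeR unadjusted p = 0.0064, adjusted p = 0.610). Of 9 mucous gland or goblet genes 8 had a lower fitted level (median -0.36), of 13 serous genes 10 (-0.059) and of 9 lipocalin genes 7 (-0.21). So had 5 of 6 ciliated (-0.18), 4 of 6 plasma and immune (-0.25), all 4 endothelial (-0.095) and 3 of 5 erythroid genes (-0.012). Of 6 vomeronasal neuron markers 3 had a lower fitted level (-0.0076). Among them Omp, the gene this Cre is named after, differed by -0.76 (SE 0.16, edgeR unadjusted p = 0.00096, adjusted p = 0.347). The part of these markers in the values of the 9 genes was not tested.

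In OMPCre cKOs against the 6 controls of their line, edgeR called 0 of 18623 genes (0.0%). Bpifb3 and Bpifb4 had a lower fitted level at an unadjusted p under 0.05, and the share of all genes at that level was not set beside them. DESeq2 called 42 genes in this comparison and none of the 9. Bpifb3 measured 12.7, 13.1 and 24.0 CPM in cKOs, 52.4, 19.2 and 32.3 CPM in flox controls and 70.8, 61.9 and 29.3 CPM in heterozygotes. Of the 3 cKO libraries, 2 lay below all 6 controls, and the third lay above flox replicate 2. The log2 difference was -1.42 (SE 0.43, unadjusted p = 0.0078, adjusted p = 1.00), and the exact permutation p was 0.036. It was -1.07 against flox controls alone and -1.70 against heterozygotes alone. Within the series of library names it was -1.76 (letter and number) and -0.34 (line and number) on the mean log2(CPM + 1) scale. Bpifb4 measured 0.14, 1.32 and 0.46 CPM in cKOs, from 9 to 82 counts, and 0.60 to 24.2 CPM in controls, a log2 difference of -3.67 (SE 1.46, unadjusted p = 0.031) that rested largely on flox replicate 1 at 18.6 CPM and heterozygote replicate 1 at 24.2 CPM. Its control median was 2.34 CPM, and the exact permutation p was 0.131. Within the series of library names the Bpifb4 difference was -2.20 (letter and number) and -0.60 (line and number) on the mean log2(CPM + 1) scale. No gene of the 9 had cKO libraries wholly outside the control range, as 2.36% of genes tested did. Of 6 vomeronasal neuron markers, 4 had a higher and 2 a lower fitted level in these cKOs, 3 of the former at an unadjusted p under 0.05 and none called, with a median log2 difference of 0.12. All 5 sustentacular genes (median -0.35), all 5 erythroid genes (-0.29, 1 at an unadjusted p under 0.05), 4 of 5 main olfactory neuron genes (-0.29), 5 of 6 ciliated genes (-0.041), 5 of 6 plasma and immune genes (-0.11) and 3 of 4 endothelial genes (-0.084) had a lower fitted level, and none was called. The part of these markers in the Bpifb3 and Bpifb4 values was not tested.

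Bpifb9b measured 8.14, 553 and 189 CPM in OMPCre cKOs and 6.36 to 86.9 CPM in the 6 controls. Of the cKO libraries, 2 lay above all controls and 1 among the lowest, with a log2 difference of 2.40 (SE 1.09, unadjusted p = 0.053). Without cKO replicate 2 it was 1.05. Bpifb9a (219, 1080 and 1983 CPM), Bpifb5 (11.9, 54.4 and 81.4 CPM) and Muc5b (267, 304 and 1273 CPM) were all highest in OMPCre cKO replicate 3, and their log2 differences from controls were 0.78 (SE 0.68), 0.71 (SE 0.71) and 0.62 (SE 0.56). Without that library the difference of Muc5b was -0.48.

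No cKO effect of the 9 genes differed between the lines after adjustment, and Bpifb3 alone was at an unadjusted p under 0.05. The share of all genes at that level was not set beside it. AP-2εCre minus OMPCre was 1.61 on the log2 scale (SE 0.63, unadjusted p = 0.020, adjusted p = 1.00). On the log2(CPM + 1) scale all 3 AP-2εCre cKOs lay above the mean of their controls and all 3 OMPCre cKOs below theirs. In CPM the AP-2εCre control mean was 97.2, and cKO replicate 1 at 87.1 lay below it. No interaction was called by edgeR for any of 19465 genes (0.0%), and DESeq2 called 16, none of the 9. Muc5b had an interaction of -1.40 (SE 0.86, unadjusted p = 0.123) and Bpifb9b of -2.50 (SE 1.89, unadjusted p = 0.204). Of the marker lists, the interaction was below 0 for all 9 mucous (median -0.48), all 9 lipocalin (-1.46) and all 6 ciliated genes (-0.42) and above 0 for all 6 plasma and immune (0.39), all 5 erythroid (0.65) and all 5 main olfactory neuron genes (0.54), and their part in the Bpifb3 value was not tested.

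Between the controls of the lines none of the 9 genes passed adjustment, and 3 stood higher in the AP-2εCre line at an unadjusted p under 0.05. The share of all genes at that level was not set beside this count. In the fit over 18 libraries edgeR called 31 of 19465 genes between the 2 sets of controls (0.159%). Bpifb3 ranged from 58.9 to 226 CPM with a median of 71.6 CPM in the 6 AP-2εCre-line controls and from 19.2 to 70.8 CPM with a median of 42.4 CPM in the 6 OMPCre-line controls. The log2 difference was 1.14 (SE 0.36, unadjusted p = 0.0060, adjusted p = 0.420), the exact permutation p was 0.022 for 6 against 6 libraries, and the within-series values were 1.10 and 1.01. Bpifb5 was higher by 1.32 (SE 0.61, unadjusted p = 0.044, adjusted p = 0.680). Bpifb9b was higher by 3.90 (SE 1.20, unadjusted p = 0.0048, adjusted p = 0.392), with an exact permutation p of 0.058. Within the series of library names the Bpifb9b difference was 3.72 (letter and number, 4 against 4 libraries) and 1.38 (line and number, 2 against 2) on the mean log2(CPM + 1) scale. Its 3 flox controls in the AP-2εCre line, at 14.4 to 101 CPM, overlapped the OMPCre-line range of 6.36 to 86.9 CPM. DESeq2 called Bpifb9b here as well (log2 difference 3.90, adjusted p = 0.0288, from 0.0288 to 0.465 over 7 alternatives) among 155 genes (0.796%). Markers of other cells differed between these controls too. Of 5 erythroid genes, 4 had a lower and 1 a higher fitted level in the AP-2εCre line, with a median log2 difference of -0.75, and the heme synthesis gene Alas2 was called (log2 difference -0.89, SE 0.14, adjusted p = 0.011). Their summed level was 4988 to 10185 TPM in AP-2εCre-line controls and 9347 to 17691 TPM in OMPCre-line controls. All 6 ciliated cell genes tested had a higher fitted level, 2 of them at an unadjusted p under 0.05, with a median of 0.37. Of the other lists, 4 of 5 main olfactory neuron (0.080), 4 of 5 sustentacular (0.10), 4 of 6 plasma and immune (0.088), 3 of 6 vomeronasal neuron (-0.080) and 2 of 4 endothelial genes (-0.0037) had a higher fitted level. So had 9 of 10 other mucins (0.22), 5 of 9 mucous gland or goblet (0.13), 6 of 13 serous (-0.057) and 5 of 9 lipocalin genes (0.23). Of the mucin, gland and lipocalin lists, those at an unadjusted p under 0.05 were Ltf (log2 difference 0.45, SE 0.10, edgeR unadjusted p = 0.0002, adjusted p = 0.082), the lysozyme gene Lyz2 (0.64, SE 0.29, edgeR unadjusted p = 0.042, adjusted p = 0.669) and Fcgbp (0.25, SE 0.11, edgeR unadjusted p = 0.042, adjusted p = 0.669). Of the vomeronasal markers they were Omp (0.39, edgeR unadjusted p = 0.036, adjusted p = 0.654), Tfap2e (-0.46, edgeR unadjusted p = 0.039, adjusted p = 0.662) and Meis2 (0.11, edgeR unadjusted p = 0.049, adjusted p = 0.685). At that level 1 sustentacular gene was higher and 3 erythroid genes were lower in the AP-2εCre line. The part of these markers in the values of the 9 genes was not tested.

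**Figure D4:**
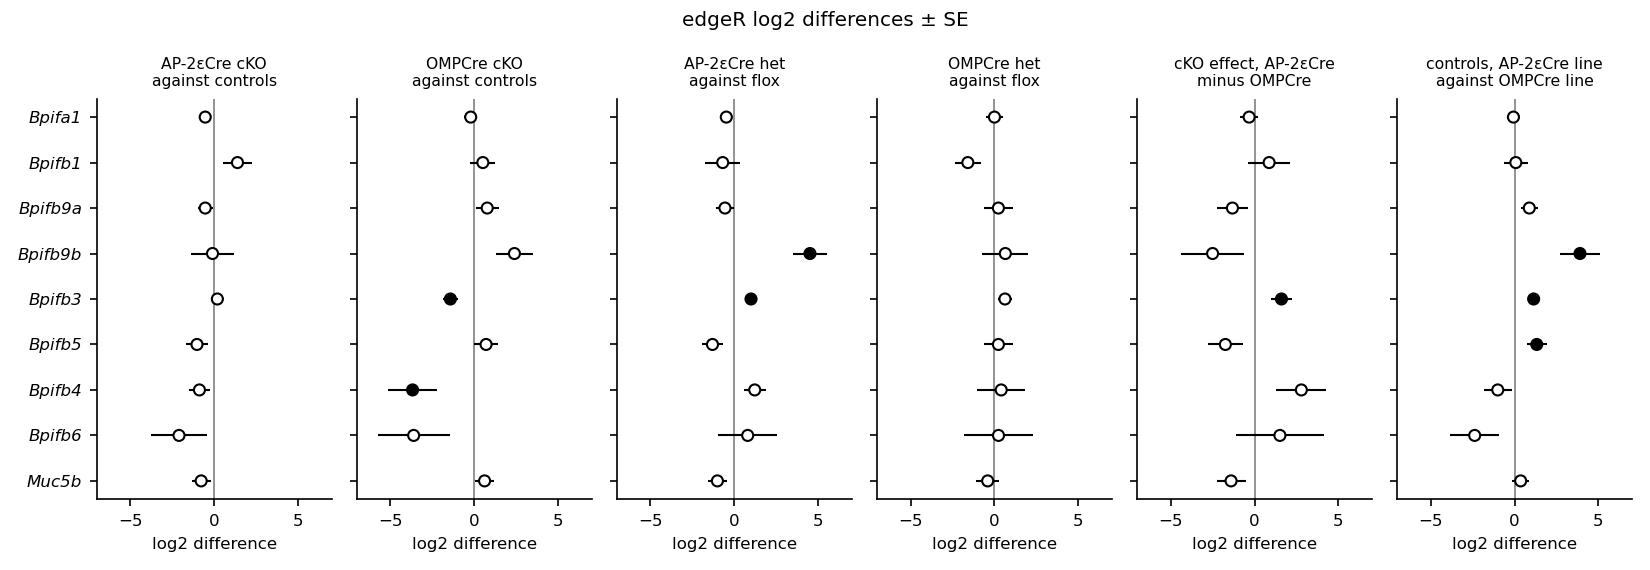
Log2 differences of the 9 genes in the 6 comparisons, as fitted by edgeR, with bars of 1 SE and filled points where the unadjusted p was under 0.05. No point passed the adjusted threshold, and the largest filled differences were those of Bpifb9b at 4.51 and 3.90 and of Bpifb4 at -3.67.

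Among the genes, 2 pairs on the chromosome 2 locus went together over the 18 libraries. Bpifb5 and Bpifb9a, which follow each other on the chromosome and share no 75-base stretch, had a Pearson r of 0.959 and a Spearman rho of 0.948 on log2(CPM + 1). Each has a permutation p of 1e-05, the smallest 100000 resamples can give, and 0.00036 after adjustment over 36 pairs. r was 0.952 without the 2 libraries farthest from the median of Bpifb5, 0.963 after subtraction of group means, and 0.955 and 0.976 within the 12 and 6 libraries of either series of names. Both genes were highest in AP-2εCre flox replicate 1 (187 CPM for Bpifb5 and 2018 CPM for Bpifb9a) and lowest in OMPCre flox replicate 3 (6.38 CPM and 161 CPM). Bpifb9b, the near-copy of Bpifb9a, had an r of 0.418 with Bpifb9a.

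Bpifb4 and Bpifb6, the low genes of the other end of the locus, had an r of 0.856 and a rho of 0.689 (adjusted p = 0.0018 and 0.038 by the same permutation test). This rested in part on OMPCre flox replicate 1 and OMPCre heterozygote replicate 1. These had 1229 and 1549 counts of Bpifb4 and 362 and 435 counts of Bpifb6, where all other libraries had at most 579 and 66. Without them r was 0.616. No other pair of the 36 passed the adjustment, Bpifb1 with Muc5b included (r = 0.481, adjusted p = 0.316), and the median r over pairs was 0.019.

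**Figure D5:**
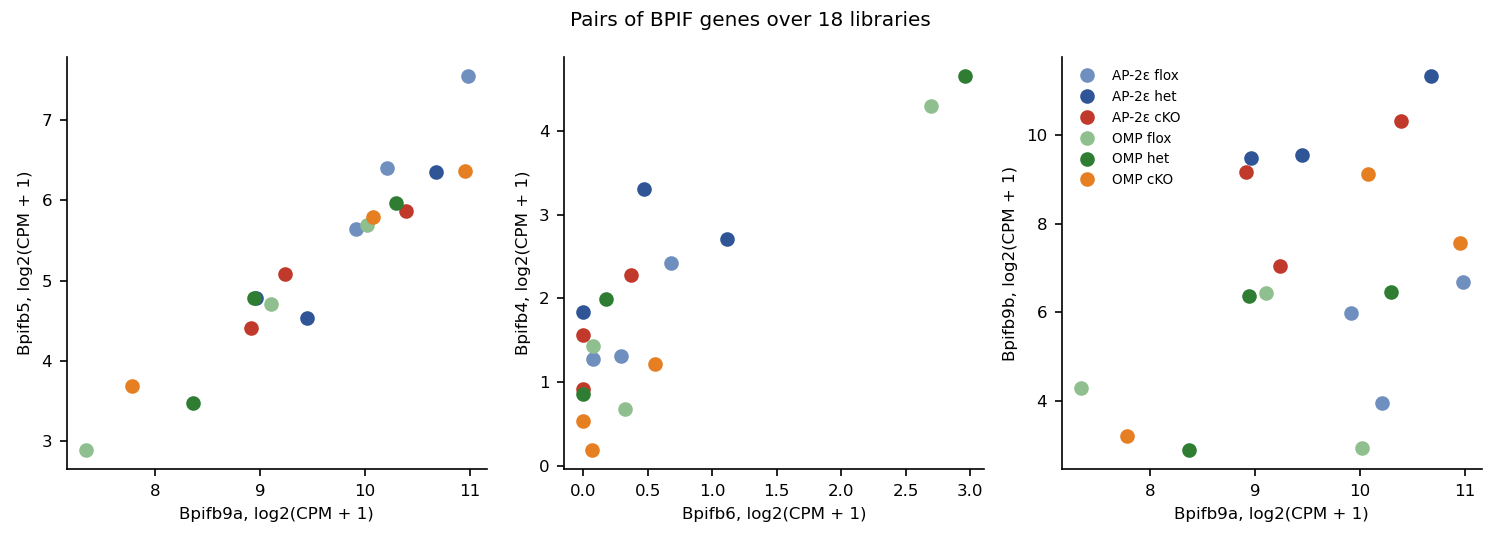
Levels of 3 pairs of BPIF genes in the 18 libraries, on log2(CPM + 1) axes, coloured by group. Bpifb5 follows Bpifb9a along a line (r = 0.959), Bpifb4 follows Bpifb6 with 2 OMPCre-line libraries far from the rest (r = 0.856), and Bpifb9b scatters against Bpifb9a (r = 0.418).

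Among 15838 other genes with a mean of at least 1 CPM, those most like Bpifa1 by Pearson r over the 18 libraries were Mcu (0.860), Ccdc60 (0.859), 1700013F07Rik (0.847), Atp7b (0.847) and Cyp4b1 (0.839). For Bpifb1 they were the gastric lipase gene Lipf (0.859), the lysozyme gene Lyz1 (0.814), Sbpl (0.809), Gm4875 (0.692) and Gm10184 (0.688). For Bpifb9a they were 2310003L06Rik (0.736), Cabs1 (0.724), Bcar3 (0.723), Zfp334 (0.691) and Omd (0.665), all below its r with Bpifb5. For Muc5b they were the serine protease gene Prss32 (0.892), the trefoil factor gene Tff2 (0.798), which encodes a peptide secreted with mucins, Pax1 (0.759), Gramd1b (0.749) and Creb3l4 (0.749). Named after its values were seen, the secretoglobin gene Scgb1c1 was the most like Bpifb3 (0.900). These are the extremes of many correlations, and all rest on the same 18 libraries.

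In the rest of the BPI family and the other mucins no gene was called in any comparison. Of 9 other family genes, 4 were tested. The lipopolysaccharide-binding protein gene Lbp (55.8 TPM) and the phospholipid transfer protein gene Pltp (40.8 TPM) were above the salivary gene Bpifa2 (1.19 TPM), and Bpi itself averaged 0.0051 TPM. Genes named here after their values were seen reached an unadjusted p under 0.05. The family gene Bpifc differed by 2.02 on the log2 scale in AP-2εCre heterozygotes (SE 0.66, unadjusted p = 0.012, adjusted p = 0.833) and by -2.34 in OMPCre heterozygotes (unadjusted p = 0.037) against flox controls. Between the controls of the lines, Bpifa2 differed by 2.53 (SE 0.92, unadjusted p = 0.013, adjusted p = 0.537) and Pltp by 0.30 (SE 0.10, unadjusted p = 0.0086, adjusted p = 0.473), and Lbp differed by -0.26 in AP-2εCre cKOs (unadjusted p = 0.039). The median log2 difference of the 4 tested family genes was -0.17 in AP-2εCre cKOs and 0.02 in OMPCre cKOs. Among 9 other mucins tested in the AP-2εCre line, led by Muc1 (45.6 TPM), Muc5ac (35.5 TPM) and Muc4 (26.1 TPM), 2 had a higher and 7 a lower fitted level in the AP-2εCre cKOs, 2 of the 7 at an unadjusted p under 0.05, with a median log2 difference of -0.41. These were the gel-forming Muc5ac, with a log2 difference of -2.62 (SE 0.70, unadjusted p = 0.0035, adjusted p = 0.308), and the membrane-bound Muc16, with -0.84 (SE 0.23, unadjusted p = 0.0045, adjusted p = 0.316). Of the 9 mucous gland or goblet genes tested, led by Tff2 (240.3 TPM), Agr2 (96.6 TPM) and Fcgbp (47.3 TPM), all 9 had a lower fitted level in these cKOs, 3 of them at an unadjusted p under 0.05, with a median of -0.63 and none called. Of 13 serous genes, led by the lactoferrin gene Ltf, 10 had a lower fitted level, 3 of them at an unadjusted p under 0.05, with a median of -0.26 and none called. All 9 nasal lipocalin genes, led by Obp2a, had a lower fitted level in these cKOs, all 9 at an unadjusted p under 0.05, with a median of -2.03 and a lowest adjusted p of 0.249. In OMPCre cKOs the medians were -0.01 for mucous, -0.04 for serous and -1.14 for lipocalin genes. Of the latter 4 had a higher and 5 a lower fitted level there, none at an unadjusted p under 0.05, and the abundant Obp2a, Obp2b, Lcn3 and Lcn4 stood at 0.047 to 0.24.

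Genes between and within 300 kb of the BPIF genes were described as a list, by counts and medians of single-gene fits. Of 25 such genes, 14 were tested in the AP-2εCre line and none was called, with a median log2 difference of 0.08 in cKOs and 0.08 in heterozygotes against flox controls. The most abundant of them was the microtubule end-binding gene Mapre1 at 129 ± 7.33 CPM (SD, n = 18). Bpifb9b spanned a 408-fold range over the same libraries.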

How the data were processed

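PolyA+ RNA of whole VNOs was sequenced by the authors as directional single reads of 75 bases and quantified with Salmon 0.14.0 per the labels' processing notes. The deposited files hold, per transcript, an estimated count, not normalized, and a TPM value. They list 116248 transcripts, of which 116072 were paired with a gene through GENCODE vM21 (GRCm38). The remaining 176, with at most 0.0324% of a library, were dropped. Gene values are the rounded sums of the estimated counts over transcripts. A study library with conflicting labels entered no group.

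edgeR 4.0.16 (R 4.3.3) quasi-likelihood tests with TMM factors, filterByExpr and Benjamini-Hochberg adjustment over all genes tested were the main tests (called at adjusted p under 0.05, two-sided). The study itself used DESeq2 1.22.2. Each cKO group was compared with the 6 controls of its line, and heterozygotes with flox controls in a 3-group fit. The interaction and the comparison of controls between lines used all 18 libraries. CPM are counts per 1e+06 of a library's TMM-normalized total, and log2 values of them have a pseudocount of 1. Exact permutation tests on mean log2(CPM + 1) had 84 (3 against 6), 20 (3 against 3) or 924 (6 against 6) arrangements. Alternatives included DESeq2 1.42.0, other size factors, filters and controls, length-scaled TPM, library name series, a replicate block and leaving out each library. The edgeR and DESeq2 fits of the AP-2εCre cKO comparison were also tested on simulated data, and no value here rests on that.

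Replicates are biological replicates per the labels. Library pairs differed beyond counting noise (lowest chi-square per gene 44.2 over 153 pairs). Replicate numbers come from the labels and name different animals. Libraries with the same number correlated at a mean r of -0.083 in the AP-2εCre line, where those of different number gave 0.042. In the OMPCre line the mean was 0.24 (0.022 to 0.52) for the same number and -0.12 (-0.41 to 0.23) for different numbers. OMPCre-line libraries of the same number were thus more alike on average. Not every same-number pair exceeded 0.1, so numbers were not taken as pairs, and a replicate block was kept as an alternative.

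The 9 genes and all gene lists were chosen with earlier results of these data known. All 9 genes are named. Of other lists, called genes and up to 3 of the highest mean TPM are named, and for the 3 of the 9 genes with the highest mean CPM and for Muc5b the 5 genes of highest Pearson r. Exceptions are stated. Mouse genotypes were taken from the labels, the series' design text and the study's methods.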

Additional observations from a re-analysis of the deposited data

Results flagged for a closer look

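Bpifb3 lay on opposite sides of the control mean in the cKOs of the 2 lines. Relative to the mean log2(CPM + 1) of their controls, the AP-2εCre cKOs differed by 0.36 on average (3 of 3 libraries above) and the OMPCre cKOs by -1.29 (3 of 3 below). No AP-2εCre cKO library lay above all controls of its line. The fitted AP-2εCre difference was 0.19 (SE 0.41, edgeR unadjusted p = 0.645) and became -0.22 against heterozygotes alone. The test of the difference between the lines gave a log2 interaction of 1.61 (SE 0.63, edgeR unadjusted p = 0.020, adjusted p = 1.00). Bpifa1 in heterozygotes differed from the flox mean of log2(CPM + 1) by -0.39 on average in the AP-2εCre line (3 of 3 libraries below) and by 0.17 in the OMPCre line (3 of 3 above). The fitted OMPCre value was 0.0032 (SE 0.48, edgeR unadjusted p = 0.995), which gives no direction there, and the difference between the lines was not tested.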

How the results depend on the processing

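Of the 9 genes' fits under other settings, 472 of 487 kept their direction and side of the threshold and 2 gained a call, Bpifb9b by DESeq2 in AP-2εCre heterozygotes (log2 4.50) and in the controls of the lines (3.90). The cause of the changes below was not tested. Numbers of genes called (7, 0, 9, 14, 0 and 31 in the order AP-2εCre cKO, OMPCre cKO, AP-2εCre heterozygotes, OMPCre heterozygotes, interaction, controls of the lines) became 309, 42, 122, 155, 16 and 155 with DESeq2. With length-scaled TPM they were 2 (AP-2εCre cKO), 4 (AP-2εCre heterozygotes) and 17 (controls), with at least 1 count in total 14 (AP-2εCre heterozygotes) and 20 (controls), and with at least 10 counts in every library 2 (OMPCre cKO), 4 (OMPCre heterozygotes) and 10 (controls). With the form of the library name as a covariate they were 2, 1 and 5 in the first 3 comparisons. With all 18 libraries in 1 fit they were 16, 15, 33 and 9 in the first 4, and with only the 6 libraries 4 (AP-2εCre heterozygotes) and 8 (OMPCre heterozygotes). The AP-2εCre cKO count was 24 against flox controls alone and 0 with the library of conflicting labels added, and the OMPCre cKO count 11 against heterozygotes alone. Leaving out each library gave 2 to 8, 0 to 2, 3 to 21, 6 to 19, 0 to 1 and 10 to 32 in the same order.

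The replicate number as a block, although numbers were not taken as pairs, gave 2 (AP-2εCre cKO), 3 (AP-2εCre heterozygotes), 7 (OMPCre heterozygotes) and 13 (controls) calls, and none of the 9 genes was called. Under the block, OMPCre heterozygote differences turned to -0.11 for Bpifb5, -0.42 for Bpifb6 and -0.017 for Bpifb9a, and the interaction of Bpifb6 to -0.59.

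Directions of uncalled differences also turned for Bpifb3 (-0.22, AP-2εCre cKO against heterozygotes alone), Bpifb9b in the AP-2εCre cKO (3.47 against flox alone, 0.12 with the conflicting library added, 1.22 with all 18 libraries), Bpifb1 (-0.071, OMPCre cKO against flox alone), Bpifb9a in AP-2εCre heterozygotes (0.40 with length-scaled TPM, while the 0.67 of Bpifb9a and Bpifb9b added is the sum of both genes and no value of Bpifb9a), Bpifa1 (-0.0084, OMPCre heterozygotes, length-scaled TPM) and Bpifb6 (-0.21, OMPCre heterozygotes, name series). Leaving out 1 library turned differences within these ranges. In AP-2εCre cKOs they were -0.21 to 1.85 for Bpifb1 and -1.01 to 1.01 for Bpifb9b. In OMPCre cKOs they were -0.69 to 0.13 for Bpifa1, -0.28 to 1.06 for Bpifb1 and -0.48 to 0.97 for Muc5b. In AP-2εCre heterozygotes they were -0.62 to 1.89 for Bpifb6. In OMPCre heterozygotes they were -0.33 to 0.45 for Bpifa1, -1.90 to 3.03 for Bpifb4, -0.59 to 1.05 for Bpifb5, -4.87 to 3.87 for Bpifb6 and -0.51 to 0.96 for Bpifb9a. For the interaction they were -0.70 to 0.15 for Bpifa1, -0.74 to 1.67 for Bpifb1 and -4.10 to 4.24 for Bpifb6. Between controls they were -0.31 to 0.085 for Bpifa1, -0.24 to 0.62 for Bpifb1 and -0.088 to 0.55 for Muc5b. Bpifb6, at 0 to 435 counts per library, is too low for a fold.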

Other observations

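The AP-2εCre library whose title names a heterozygote and whose genotype label names a cKO had 49415894 estimated counts and entered no comparison of the main tests. Under either label the animal carries Cre. It measured 1749 CPM of Bpifa1, 376 CPM of Bpifb1, 96.3 CPM of Bpifb3, 2.48 CPM of Bpifb4, 38.1 CPM of Bpifb5, 662 CPM of Bpifb9a, 36.8 CPM of Bpifb9b and 325 CPM of Muc5b, and Bpifb6 was not detected (0 counts, which allows up to 3). Its share of Bpifb9b in the counts of the Bpifb9a and Bpifb9b pair was 5.26%. That value lies inside the range of the AP-2εCre-line flox controls (1.20% to 6.11%) and below the heterozygotes (52.0% to 61.3%) and cKOs (17.8% to 54.5%) of that line.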
